A study of Bos taurus with 27 samples.

Results

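The genes described here were 10 transcription factors of the trophectoderm: CDX2, GATA3, GATA2, TFAP2C, TFAP2A, ELF3, ELF5, HAND1, DLX3 and ETS2. They were taken by name from a table of counts for 32637 genes. All 10 were in the table, and all 10 were among the 12310 genes retained at 1 CPM (counts scaled to a pool total of 1000000) or more in at least 12 pools. The rule used gene names and no measured value.

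The trophectoderm is the outer epithelium of the blastocyst, which surrounds the inner cell mass and later forms the fetal part of the placenta. In the mouse its identity is set when Hippo signaling is low in outer cells. YAP1 and WWTR1 then enter the nucleus and activate TEAD factors, which switch on CDX2 and GATA3. In ruminants the trophectoderm also secretes interferon tau, the signal by which the mother recognizes pregnancy, and ETS2, CDX2 and DLX3 are known to act on its promoter.

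The data were 3′-end RNA-sequencing counts from 27 pools of 2 bovine blastocysts each, all of quality score 1 and stage score 7. Oocytes from abattoir ovaries had been matured in vitro with preovulatory follicular fluid of either greater or lesser follicle maturity, then fertilized with semen of the same bull and cultured identically. The labels did not place a pool in either treatment or in an in vitro fertilization replicate, so the treatments were not compared and all 27 pools were described as a single set. Any p-value below measures the spread between these pools only, and treatment, replicate and embryo sex were not separated within it.

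Total counts ranged from 10517606 to 44253564 per pool with a median of 22293594, and 3 counts corresponded to between 0.0678 and 0.285 CPM. Keratins of simple epithelia, which the trophectoderm expresses, were abundant in every pool: KRT8 had a median of 18607 CPM and KRT18 of 7937 CPM, and their sum was between 15178 and 38334 CPM. Markers of other cells were also present. The epiblast sum was 303 to 1273 CPM (POU5F1 median 399 CPM), and the hypoblast sum was 364 to 1670 CPM (GATA6 median 211 CPM, SOX17 median 0 CPM). The sum of 10 leukocyte markers was 16.3 to 110 CPM, with LAPTM5 at no more than 0.138 CPM. Summed cumulus and granulosa markers were 41.9 to 541 CPM, mostly HSD3B1 (median 89.4 CPM). Of these 8 genes 4 were retained, and STAR, FSHR and CYP19A1 had medians of 11.3, 8.89 and 0.971 CPM. Which cells HSD3B1 came from was not tested. Erythrocyte markers reached 20.7 CPM and sperm markers had a median of 5.86 CPM. In whole blastocysts, fewer cells of a type and less RNA per cell cannot be told apart.

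TFAP2C, GATA3 and GATA2 carried most of the signal. TFAP2C, an AP-2 factor needed for trophoblast formation, was the most abundant, with a lowest level of 151 CPM, a median of 221 CPM and a highest level of 298 CPM. GATA3, a zinc finger factor that acts beside CDX2, had a median of 132 CPM, with extremes of 90.5 and 238 CPM. GATA2, its close relative, had a median of 63.6 CPM, with extremes of 18.7 and 111 CPM. On average these contributed 47.1%, 28.2% and 14.2% of the summed CPM of the members. All 3 were well above 1 CPM in every pool, and no pool lacked any of them.

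Next in order were ELF3 and ETS2, both ETS family factors. ELF3, an epithelial factor, ran from 5.05 to 34.6 CPM around a median of 17.5 CPM. ETS2, an activator of the interferon tau promoter, ran from 6.37 to 22.4 CPM around a median of 14.1 CPM. Although their medians differed, ELF3 was higher in only 19 of 27 pools, and their interquartile ranges overlapped.

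TFAP2A, DLX3 and CDX2 followed at a few CPM. TFAP2A, the other AP-2 factor, ranged from 1.04 to 10.8 CPM with a median of 6.25 CPM. DLX3, a homeodomain factor of the placenta, ranged from 1.88 to 9.98 CPM with a median of 5.14 CPM. CDX2, the homeodomain factor most used to mark the trophectoderm, ranged from 1.97 to 9.42 CPM with a median of 3.62 CPM. CDX2 was detected in all 27 pools, from 32 to 289 counts, and 7 of the other members were more abundant. TFAP2A was higher than DLX3 in 18 pools and DLX3 higher than CDX2 in 21 pools, so the order held within most pools. The interquartile ranges of these neighbors overlapped.

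ELF5 and HAND1 were the least abundant and were not ordered. ELF5, a factor of trophoblast stem cells in the mouse, had a median of 1.35 CPM and a highest level of 9.29 CPM, and it had no count in 5 pools. In 10 pools it was at or under 3 counts, and the highest of these was 0.0891 CPM, whereas the next pool up was at 0.897 CPM. HAND1, a basic helix-loop-helix factor of trophoblast differentiation, ran from 0.160 to 17.4 CPM around a median of 1.15 CPM. Its level in pool 28 was 29.4% of its CPM summed over all pools, and the next pool was at 6.02 CPM. By median ELF5 was above HAND1, by mean (1.81 and 2.19 CPM) it was below, and it was higher in 13 of 27 pools.

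**Figure D1:**
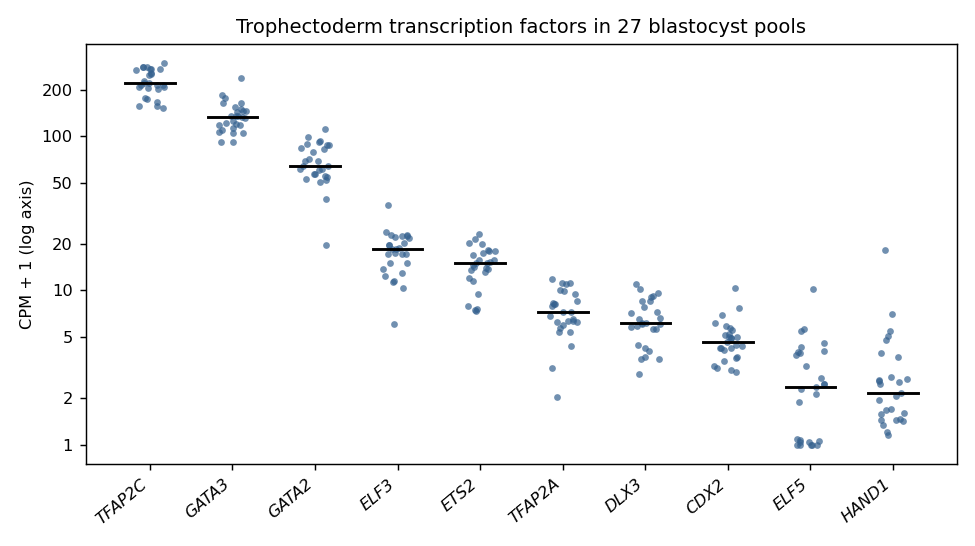
CPM plus 1 of each member on a log axis, with 1 point per pool (27 pools) and a black line at the median. TFAP2C, GATA3 and GATA2 lie highest, and the points of ELF5 fall into a set of 10 pools at or near 0 and the other pools at 0.897 CPM or more.

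The counts come from transcript ends and were not divided by transcript length, so the order between genes is one of 3′-end counts. The first 3 places were nearly fixed within pools. TFAP2C exceeded GATA3 in 26 of 27 pools, with pool 31 as the exception, and GATA3 exceeded GATA2 in all 27. GATA2 exceeded ELF3 in 26 pools, and the exception was pool 9, in which GATA2 had its lowest level.

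Within families, the members set side by side differed in level to different degrees. The ratio of TFAP2C to TFAP2A had a median of 37.5 and ranged from 15.4 to 273, the highest being in pool 32. The ratio of GATA3 to GATA2 was smaller and steadier, with a median of 1.94 and a range from 1.20 to 4.89. Of 20 other members of these families, 9 were retained. Some were more abundant than the members named for the trophectoderm: GATA6, a hypoblast factor, had a median of 211 CPM, ELF2 of 44.8 CPM and DLX4 of 38.0 CPM, against 5.14 CPM for DLX3. DLX1 had no count in any pool, and CDX1 had a median of 0.629 CPM.

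On the ARS-UCD2.0 assembly the members lay on 9 autosomes. Only TFAP2C (chromosome 13, 59366398 to 59375952) and GATA3 (chromosome 13, 15904672 to 15935245) shared a chromosome. CDX2 was at 32083554 to 32089291 on chromosome 12, DLX3 at 36662426 to 36667620 on chromosome 19, ELF5 at 65019518 to 65052702 on chromosome 15 and HAND1 at 65748837 to 65752155 on chromosome 7. None overlapped another annotated gene except GATA3, which overlapped a long noncoding RNA, LOC112449253, with a median of 0 CPM.

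The members differed in how much they varied among pools beyond counting error. This was measured as the biological coefficient of variation (BCV) that edgeR estimates for each gene, and its median over the 12310 retained genes was 0.337, with quartiles of 0.232 and 0.526. TFAP2C had the lowest BCV of the members at 0.186, followed by GATA3 at 0.233, GATA2 at 0.309, ETS2 at 0.339 and ELF3 at 0.356. DLX3 (0.420), CDX2 (0.423) and TFAP2A (0.454) were higher, and HAND1 (0.997) and ELF5 (1.47) were highest. Because BCV falls with abundance, each member was also set beside retained genes within 0.25 log2 CPM of it.

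ELF5 varied more than 99.6% of the 786 genes of similar level, and more than 99.8% of all retained genes. HAND1 varied more than 92.1% of genes of similar level, and GATA2 more than 91.4%. In contrast, CDX2 varied more than only 18.4% of such genes and DLX3 more than 31.2%. In all, 8 of the 10 members varied more than the median gene of their level. The value for GATA2 fell to 0.252 without pool 9, and that for HAND1 to 0.834 without pool 28, whereas ELF5 remained at 1.44 without pool 9, in which it was highest.

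**Figure D2:**
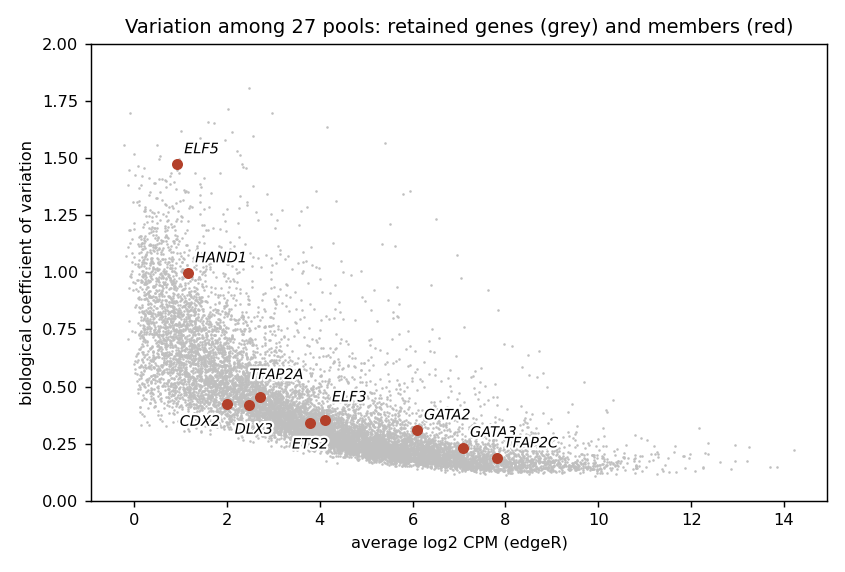
Biological coefficient of variation against average log2 CPM for the 12310 retained genes (grey) and the 10 members (red, labeled), over 27 pools. ELF5 at 1.47 stands above nearly all genes of its level, while TFAP2C at 0.186 lies low.

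Which members varied together was examined with Spearman's rho (on CPM) and Pearson's r (on log2(CPM + 1)) over the 27 pools for all 45 pairs. Two-sided p-values came from 100000 permutations. The median rho was 0.0446 and the range was -0.577 to 0.748. With no adjustment, 10 positive pairs and 1 negative pair reached p = 0.05 or less. As a test adjusted over all retained genes, the slope of every gene on log2(CPM + 1) of each member was fitted with edgeR's quasi-likelihood test. Low unadjusted p-values were common in these fits: 897 (on HAND1) to 2560 (on GATA2) of 12309 genes had p = 0.05 or less. After adjustment 0% (on ELF5 and HAND1) to 5.28% (on GATA2) of all genes were called. Of the 90 ordered member pairs, 4 had an adjusted p of 0.05 or less, with CDX2 and ELF3 counted in both directions.

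CDX2 and ELF3 formed the closest pair. Their rho was 0.748 (permutation p = 2e-05) and their r was 0.689 (permutation p = 7e-05). Leaving out the 2 most extreme pools gave an r of 0.700, and the rho was 0.719 within the 18 pools with Y-linked transcripts above 10 CPM and 0.700 within the other 9. ELF3 rose by 0.89 ± 0.20 log2 units (SE) for each log2 unit of CDX2 (edgeR adjusted p = 0.0143), among 3.30% of retained genes called on CDX2. CDX2 rose by 0.82 ± 0.20 for each log2 unit of ELF3 (edgeR adjusted p = 0.0267), where 2.62% of genes were called. Pool 32 had the lowest ELF3 (5.05 CPM) and the second-lowest CDX2 (2.07 CPM), and pool 31 had the highest CDX2 (9.42 CPM) with 21.5 CPM of ELF3. Without pool 32 the slope of CDX2 on ELF3 was 0.88 with a limma adjusted p of 0.0765. The slope of ELF3 on CDX2 kept an adjusted p of 0.05 or less whichever pool was left out.

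ELF3 was also linked with TFAP2A and GATA3. ELF3 and TFAP2A had a rho of 0.555 (permutation p = 0.00296) and an r of 0.675, which was 0.411 without the 2 farthest pools. ELF3 rose by 0.68 ± 0.15 for each log2 unit of TFAP2A (edgeR adjusted p = 0.0312), where 0.512% of genes were called. Pool 32 was lowest in both, and without it the slope was 0.52 with a limma adjusted p of 0.166. GATA3 rose by 0.38 ± 0.10 for each log2 unit of ELF3 (edgeR adjusted p = 0.0392), and the rho of this pair was 0.527 (permutation p = 0.00519). With limma in place of edgeR its adjusted p was 0.0533, and it stayed at or under 0.05 in 5 of the 27 limma fits that left out a pool.

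GATA3 correlated with CDX2 (rho 0.530, permutation p = 0.00530) and with GATA2 (rho 0.493, permutation p = 0.0101), but neither pair had an edgeR adjusted p of 0.05 or less. On GATA3 edgeR called 1.24% of retained genes, and on GATA2 5.28%, with no member among them. DESeq2 called GATA3 on CDX2 (slope 0.42, adjusted p = 0.0372), GATA2 on GATA3 (slope 0.84, adjusted p = 0.0192) and GATA3 on GATA2 (slope 0.35, adjusted p = 0.0415), and limma called GATA2 on GATA3 (slope 0.96, adjusted p = 0.0360). TFAP2C, the most abundant, had no pair whose rho reached p = 0.05 or less before adjustment. With GATA2 its r was 0.402 (permutation p = 0.0337) beside a rho of 0.253, and the r was 0.231 after the 2 most extreme pools were left out. Its rho was -0.20 with CDX2, -0.30 with ELF3 and -0.33 with its paralog TFAP2A. On TFAP2C 0.707% of genes were called, and on ETS2 0.00812%, in neither case a member.

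ELF5 and HAND1 varied in opposite directions. Their rho was -0.577 (permutation p = 0.00212) and their r was -0.522 (permutation p = 0.00454). Pool 28, with the highest HAND1 (17.4 CPM), had no count of ELF5, and pool 9, with the highest ELF5 (9.29 CPM), had 0.207 CPM of HAND1. The slope of HAND1 on ELF5 was -1.05 ± 0.27 (SE) per log2 unit with an edgeR adjusted p of 0.218, so the pair did not pass the test over all genes. It passed in 1 other setting, with all counted genes tested (edgeR adjusted p = 0.0226), and the slope was as small as -0.44 with a pseudocount of 0.1 (edgeR adjusted p = 0.451). Its rho was -0.514 within the 18 pools high in Y-linked counts and -0.183 within the other 9. On ELF5 edgeR called 0 genes (1167 before adjustment at p = 0.05 or less) and DESeq2 21. On HAND1 edgeR and DESeq2 both called 0 genes, with 897 and 1054 passing before adjustment.

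**Figure D3:**
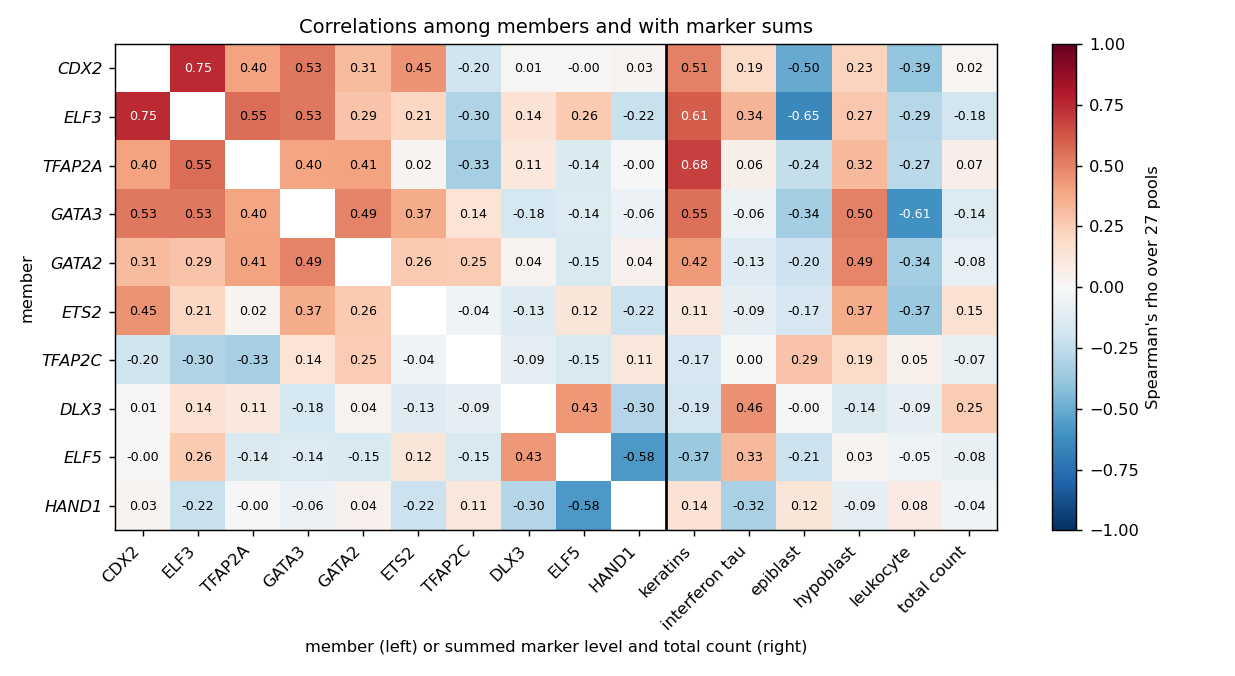
Spearman's rho over 27 pools between the members (left of the line) and between members and summed marker levels or the total count (right of the line). CDX2, ELF3, TFAP2A and GATA3 form a positive block with a highest rho of 0.75, ELF5 and HAND1 are at -0.58, and the same 4 genes are positive with the keratins and negative with epiblast markers.

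The members were then compared with summed markers of the cell types of the blastocyst. The same test was run on log2 of 5 marker sums and on the total count, and called 0% (total count) to 6.52% (epiblast sum) of all genes. Of 60 relations with members, 7 had an adjusted p of 0.05 or less. They involved CDX2, ELF3, TFAP2A, GATA3 and GATA2. TFAP2C, ELF5, HAND1, DLX3 and ETS2 were in none. The sums followed few genes. By medians, POU5F1 (399 CPM) and DPPA3 (280 CPM) were the largest parts of the epiblast sum (751 CPM). FN1 (712 CPM) was the largest part of the hypoblast sum (1049 CPM). How well these sums follow the number of cells of each type was not tested.

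On the keratin sum 6.45% of retained genes were called, and 4 of the 10 members were among them, all rising. For each log2 unit of keratins, TFAP2A rose by 1.27 ± 0.36 (SE, edgeR adjusted p = 0.0319), ELF3 by 1.11 ± 0.27 (adjusted p = 0.0133), CDX2 by 1.08 ± 0.33 (adjusted p = 0.0419) and GATA3 by 0.76 ± 0.16 (adjusted p = 0.00523). Their rho with the keratin sum was 0.681, 0.606, 0.505 and 0.552, in that order, and that of TFAP2A was 0.777 within the 18 pools and 0.0167 within the other 9. GATA2 had a slope of 0.73 with an adjusted p of 0.106. The call for CDX2 was not kept with limma (adjusted p = 0.0536), and those for GATA3 and ELF3 were kept whichever pool was left out. Without pool 32 the limma slope of TFAP2A had an adjusted p above 0.05, and the same held without pool 31.

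The epiblast sum moved the other way. Of the members, CDX2 fell by 0.96 ± 0.21 (SE) per log2 unit of the epiblast sum (edgeR adjusted p = 0.00675) and ELF3 fell by 0.78 ± 0.23 (adjusted p = 0.0373), where 6.52% of genes were called. Pool 31 had the lowest epiblast sum (303 CPM), the highest keratin sum (38334 CPM) and the highest CDX2, and pool 32 had the highest epiblast sum (1273 CPM) with the second-lowest CDX2. Without pool 31 the limma slope of CDX2 was -0.82 (adjusted p = 0.217), against -0.96 over all pools. Without pool 32 the limma slope of ELF3 was -0.59 (adjusted p = 0.0758), against -0.83 over all pools. The rho of CDX2 with the epiblast sum was -0.502 (permutation p = 0.00846) and that of ELF3 was -0.647 (permutation p = 0.00036).

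Some single markers went the same way, and KRT8, POU5F1 and DPPA3 are themselves part of these sums. Of 6 tested epiblast markers, 2 were called on CDX2 (median slope of the 6 -0.12) and 1 on ELF3 (median slope -0.28). Of the 2 keratins, 1 was called on each of CDX2, ELF3 and TFAP2A. On CDX2, KRT8 rose (slope 0.42, adjusted p = 0.0473) and SFN rose (slope 1.01, adjusted p = 0.0111), SFN being an epithelial cell-cycle regulator. POU5F1 (slope -0.74, adjusted p = 0.0241) and DPPA3 (slope -0.62, adjusted p = 0.0202), a pair of pluripotency-associated genes, fell. On ELF3, SFN rose by 1.10 (adjusted p = 0.00307), PTGS2, which makes prostaglandins, rose by 0.55 (adjusted p = 0.0283), and POU5F1 fell by 0.51 (adjusted p = 0.0460). On TFAP2A, KRT8 rose by 0.36 (adjusted p = 0.0453). Without pool 31 none of the 4 genes named on CDX2 kept a limma adjusted p of 0.05 or less, with slopes of 0.37 for KRT8, 0.92 for SFN, -0.52 for POU5F1 and -0.48 for DPPA3. The same was true without pool 32 of KRT8 on TFAP2A (slope 0.40) and of PTGS2 (slope 0.49) and POU5F1 (slope -0.52) on ELF3, whereas SFN on ELF3 was called whichever pool was left out. Among the 9 tested products of the trophectoderm, 3 rose with ELF3 and 2 with CDX2, where 2.62% and 3.30% of all genes were called. With TFAP2A 1 rose and with DLX3 1, where 0.512% and 2.20% of all genes were called. KRT8 was counted for each of ELF3, CDX2 and TFAP2A. TKDP1 fell with GATA2 (slope -1.90, adjusted p = 0.0278), where 5.28% of genes were called. That last call was not made by limma (slope -1.60, adjusted p = 0.146).

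**Figure D4:**
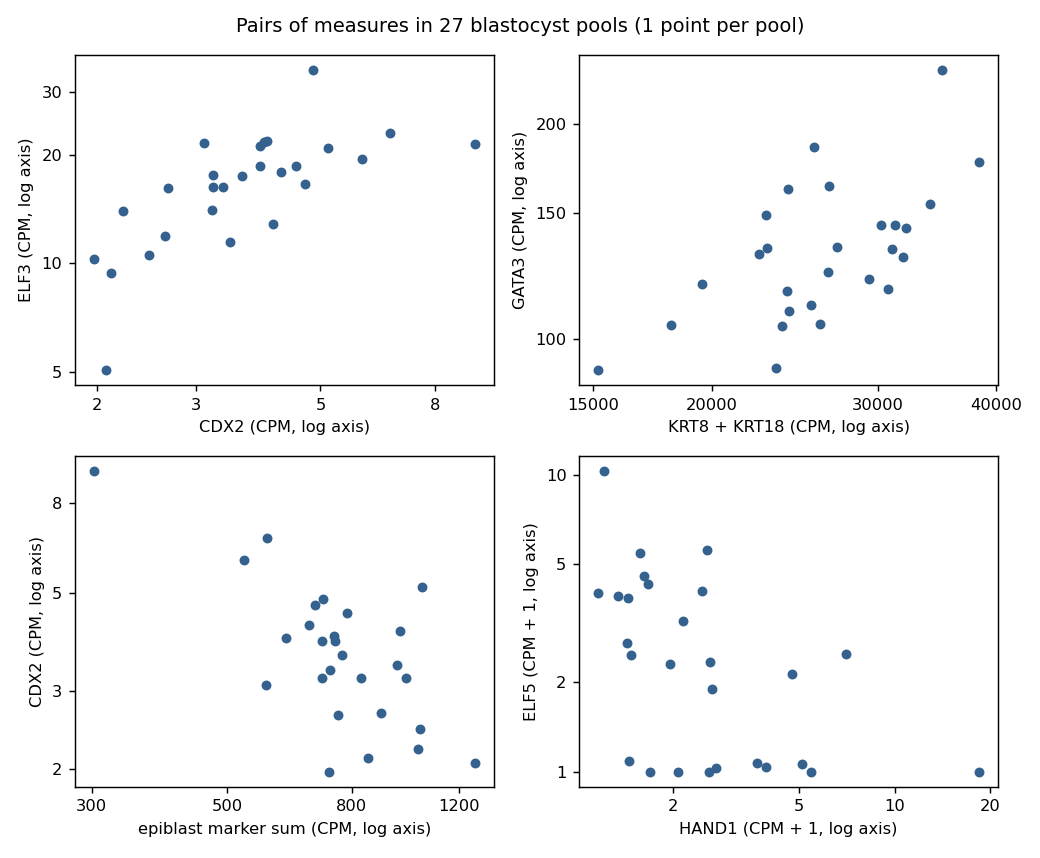
Values of single pools (27 points in each panel) on log axes in CPM, or CPM plus 1 for ELF5 and HAND1. ELF3 rises with CDX2, GATA3 rises with the keratin sum, CDX2 falls with the epiblast sum, and the pools with the highest HAND1 and the highest ELF5 lie at opposite corners.

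GATA2 moved with hypoblast markers. It rose by 0.83 ± 0.19 per log2 unit of the hypoblast sum (edgeR adjusted p = 0.0279), where 1.00% of genes were called, and its rho was 0.490 (permutation p = 0.0106). Pool 9 had both the lowest GATA2 (18.7 CPM) and the lowest hypoblast sum (364 CPM), and without it the limma slope was 0.49 with an adjusted p of 0.798. On GATA2 itself, GATA6 (slope 0.90, adjusted p = 0.00949), COL4A1 (slope 0.83, adjusted p = 0.0179) and FN1 (slope 0.49, adjusted p = 0.0325) rose, which are genes of the hypoblast and its basement membrane, where 5.28% of genes were called. Pool 9 had the lowest level of all 3, at 19.5, 11.2 and 294 CPM. Without it edgeR called 1 of 12309 genes on GATA2 (0.00812%), and the slopes were 0.39 for GATA6 (adjusted p = 0.311), 0.61 for COL4A1 (adjusted p = 0.354) and 0.31 for FN1 (adjusted p = 0.518). Pool 9 also had the highest leukocyte sum (110 CPM) and the highest interferon tau sum (597 CPM), and their part in the result was not tested. GATA3 had a similar rho with the hypoblast sum, at 0.502 (permutation p = 0.00870), but its slope of 0.38 had an edgeR adjusted p of 0.155. On GATA3, HNF4A rose (slope 1.80, edgeR adjusted p = 0.0412), 1 of 6 tested hypoblast markers, where 1.24% of genes were called. It was called in 23 of 27 limma fits that left out a pool, with an adjusted p of 0.0999 without pool 9.

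No member passed the test on interferon tau, for which 2.29% of genes were called. Before adjustment, 3 members and 16.3% of all genes reached p = 0.05 or less, with member slopes of 0.20 for DLX3, 0.12 for ELF3 and -0.47 for HAND1 and adjusted p-values of 0.132, 0.304 and 0.122. ETS2 had a slope of -0.05 (adjusted p = 0.766) and CDX2 of 0.02 (adjusted p = 0.944). The rho of DLX3 with interferon tau was 0.459 (permutation p = 0.0173). The interferon tau sum spanned 7.21 to 597 CPM and was nearly all IFNT3. When DLX3 was the covariate, IFNT3 rose by 1.84 (adjusted p = 0.0187), as did TKDP1, a trophoblast Kunitz protein, by 2.43 (adjusted p = 0.0342), where 2.20% of genes were called. IFNT3 also rose with ELF3, by 1.95 (adjusted p = 0.0337). With limma the slope of IFNT3 was 1.58 on DLX3 (adjusted p = 0.0575) and 1.36 on ELF3 (adjusted p = 0.140), while TKDP1 on DLX3 was called in all 27 limma fits that left out a pool. Interferon tau genes are near-identical copies, so the division of reads among them is uncertain.

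No member passed on the leukocyte sum, for which 0.691% of genes were called. GATA3 was nearest, with a slope of -0.29 (edgeR adjusted p = 0.0891, DESeq2 adjusted p = 0.0457) and a rho of -0.606 (permutation p = 0.00099). The leukocyte list was low in all pools, and 6 of its 10 genes were retained. On the total count edgeR, limma and DESeq2 each called 0 genes, and before adjustment edgeR found 340 genes (2.76%) and 1 member, HAND1, at p = 0.05 or less.

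The regulators that act with the members were examined from lists of 7 Hippo effectors, all retained, and 20 other trophoblast transcription factors, 18 retained. WWTR1 (median 116 CPM) and YAP1 (72.9 CPM), the coactivators, were the most abundant effectors. TEAD4, their partner in the first lineage decision of the mouse, had a median of 17.9 CPM. EOMES, a marker of mouse trophoblast, had a median of 0.0672 CPM and was not retained. GATA2 was accompanied by YAP1 (slope 0.57, adjusted p = 0.0180) and TEAD3 (slope 0.49, adjusted p = 0.0169), 2 of 7 effectors, and by KLF5 (slope 0.63, adjusted p = 0.0388), TBX3 (slope 0.42, adjusted p = 0.0191) and SMARCA4 (slope 0.47, adjusted p = 0.0187), 3 of 18 other factors, where 5.28% of genes were called. Pool 9, lowest in GATA2, was also lowest in TEAD3, KLF5, TBX3 and SMARCA4. Without it edgeR called none of these 5, with slopes of 0.38 for YAP1 (adjusted p = 0.433), 0.49 for TEAD3 (adjusted p = 0.245), 0.25 for KLF5 (adjusted p = 0.656), 0.38 for TBX3 (adjusted p = 0.323) and 0.29 for SMARCA4 (adjusted p = 0.488). SMARCA4, 1 of 18 other factors, also rose on GATA3 (slope 0.71, edgeR adjusted p = 0.0372), where 1.24% of genes were called. It was called there in 25 of 27 limma fits that left out a pool, with an adjusted p of 0.0764 without pool 9. On TFAP2C, where 0.707% of genes were called, 1 of 7 effectors and 2 of 18 other factors rose and 1 factor fell. WWTR1 (slope 0.68, adjusted p = 0.0421), CITED2 (slope 0.94, adjusted p = 0.0211) and GRHL2 (slope 1.26, adjusted p = 0.0281), an epithelial factor, rose. ID2 (slope -1.17, adjusted p = 0.0225) and NANOG (slope -2.03, adjusted p = 0.0475), the pluripotency factor, fell on TFAP2C. NANOG was the only one of 6 tested epiblast markers called on TFAP2C, and their median slope was 0.14. CITED2 and ID2 were called by limma whichever pool was left out, while NANOG was called in 25, WWTR1 in 23 and GRHL2 in 22 of the 27 limma fits, with highest adjusted p-values of 0.0514, 0.0667 and 0.0660. No Hippo effector was called on CDX2, GATA3, TFAP2A, ELF3, ELF5, HAND1, DLX3 or ETS2.

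Beyond these lists, the 2 genes most like a member were found among 8920 retained genes with a mean of at least 5 CPM. TFAP2C was most like SHROOM3 (rho 0.797), an organizer of apical actin in epithelia, and GRHL2 (rho 0.794). CDX2 was most like RCOR1 (rho 0.808), a corepressor, and DOCK1 (rho 0.749). ELF3 was most like CRELD2 (rho 0.815), a protein of the endoplasmic reticulum, and CHPF (rho 0.802). GATA3 was most like BEST2 and APMAP, GATA2 like SMPD4 and NCOA1, ETS2 like NRDE2 and POGZ, and HAND1 like MRPS25 and MRM2, with rho between 0.644 and 0.802. DLX3 was most like SYAP1 (rho 0.823) and DYNLT3 (rho 0.797), and ELF5 was most like LAS1L (rho 0.694) and SLC7A7 (rho 0.690). SYAP1, DYNLT3 and LAS1L are on the X chromosome.

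DLX3 and ELF5, both autosomal, were set apart by their likeness to X-linked genes, a comparison made after these values were seen. Of the 100 genes most like DLX3, 50 were X-linked, and of the 100 most like ELF5, 41 were. For the other members the number was 0 to 2, and 3.41% of the genes compared were X-linked. The median rho of 303 X-linked genes was 0.482 with DLX3 and 0.350 with ELF5, against 0.0195 and -0.00612 for other genes. With HAND1 it was -0.212. Leaving out each pool in turn gave 41 to 65 X-linked genes for DLX3 and 31 to 51 for ELF5.

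The levels of DLX3 and ELF5 were then set beside the content of Y-linked transcripts. The sum of 5 Y-linked genes was between 18.9 and 197 CPM in 18 pools and at most 1.65 CPM in the other 9. DLX3 was between 4.82 and 8.67 CPM in those 9 pools and between 1.88 and 9.98 CPM in the 18. Within the 18 pools alone, DLX3 fell as the Y-linked sum rose, with a rho of -0.785 (permutation p = 0.00018) and an r of -0.846 (permutation p = 4e-05). Leaving out the 2 most extreme pools gave an r of -0.810. DLX3 fell by 0.65 ± 0.14 (SE) per log2 unit of the Y-linked sum (edgeR adjusted p = 0.0395), where 0.374% of genes were called, and DESeq2 gave an adjusted p of 0.00181. In the 16 pools without those 2 the slope was -0.74 with an edgeR adjusted p of 0.259. With limma over all 18 pools the slope was -0.66 (adjusted p = 0.0473). When each of the 18 pools was left out in turn, the limma slope was between -0.73 and -0.60. Of these 18 fits 13 had an adjusted p above 0.05, the highest being 0.164 without pool 9. Over all 27 pools, 2 of 5 Y-linked genes were called on DLX3, where 2.20% of genes were called. USP9Y (slope -2.99, edgeR adjusted p = 0.0176) and DDX3Y (slope -2.91, edgeR adjusted p = 0.0206) fell. Both were called in all 27 limma fits that left out a pool.

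ELF5 had a rho of -0.278 with the Y-linked sum in the same 18 pools (permutation p = 0.264), and its slope was -1.55 (edgeR adjusted p = 0.366). Its rho with XIST, the transcript that silences an X chromosome in females, was 0.664 there, where that of GATA3 was 0.492, of ETS2 0.375, of ELF3 0.352 and of DLX3 0.319. Within the 18 pools the number of X-linked genes among the 100 most like was 24 for DLX3 and 17 for ELF5, and within the other 9 it was 7 and 3. The part of embryo sex in the levels of DLX3 and ELF5 was not tested.

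**Figure D5:**
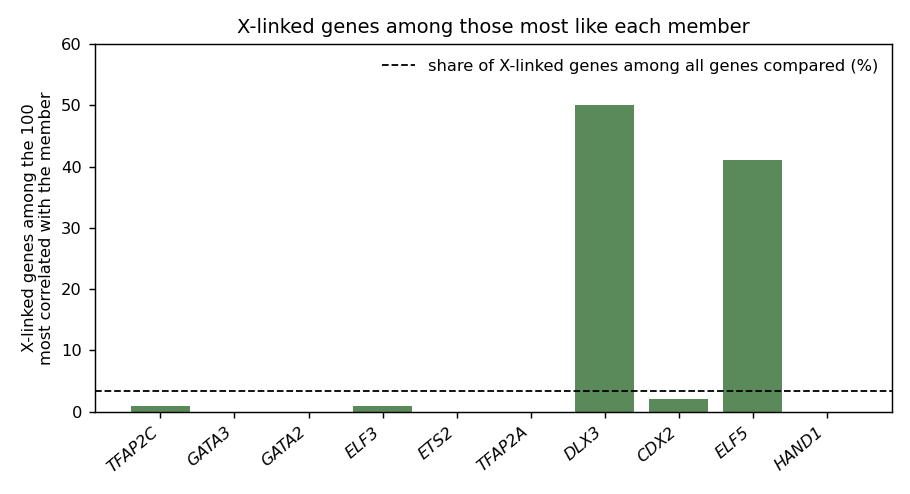
Number of X-linked genes among the 100 genes with the highest Spearman's rho with each member over 27 pools (bars), with the 3.41% share of X-linked genes among all genes compared as a dashed line. DLX3 (50) and ELF5 (41) stand above the other members, which have 0 to 2.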

How the data were processed

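Pools of 2 blastocysts were sequenced from transcript 3′ ends after amplification with a SMART-Seq 3′ kit. Per the methods and the submitters' processing notes, the authors checked reads with FastQC, used fastp for trimming, STAR for mapping to ARS-UCD2.0 and SAMtools, and deposited the raw count of each gene, without normalization. Versions were not given in the sources used here. Reads carried no molecular identifiers used in counting, so the 3-count floor covers counting error only. The standard errors come from fits over pools and include the spread between them.

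CPM was the count divided by the column total. The filter kept genes reaching 1 CPM in 12 or more pools. Slopes on log2(CPM + 1) of 1 member, on log2(sum + 1) of keratin, interferon tau, epiblast, hypoblast or leukocyte markers, or on log2 total count were fitted over all retained genes other than the covariate's own with edgeR 4.0.16 (TMM, quasi-likelihood) in R 4.3.3, with Benjamini-Hochberg adjustment. limma 3.58.1 and DESeq2 1.42.0 were alternatives. Correlations used 100000 two-sided permutations (scipy 1.17.1, numpy 2.4.6). Scripts were tested on simulated data. No 2 pools were duplicates, the lowest chi-square per degree of freedom over 351 pairs being 23.9.

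The genes named were the 10 members, genes of the lists that a result turned on, and the 2 genes most like each member, which for TFAP2A are not reported here. Members and lists were chosen with earlier results of these data known. The X-linked and Y-linked comparisons of DLX3 and ELF5, and the fits of listed genes without a pool, were added after seeing the data. No treatment or replicate was assigned to a pool, and treatments were not compared. Positions came from RefSeq for ARS-UCD2.0, and no sequence was printed.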

Additional observations from a re-analysis of the deposited data

How the results depend on the processing

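The 752 values computed over all settings included counts and levels, which could not change sign. The slopes among them were those called and a few others named above, and the correlations were of chosen member pairs, not split by Y-linked transcripts. Among these 1 reversed: the slope of TFAP2A on the keratin sum was -0.28 within the 9 pools low in Y-linked transcripts (limma). Other signs were not all stable. Within those 9 pools the rho of TFAP2C was 0.367 with CDX2 and 0.1 with ELF3, against -0.198 and -0.299 over all 27. With TFAP2A it stayed negative, at -0.383 and -0.330. More often a call was lost with its sign kept. This held for CDX2 on the keratin sum in 29 settings (8 kept it), GATA3 on ELF3 in 25 (12 kept it) and DLX3 on the Y-linked sum in 14 (7 kept it). The 4 calls among members became 8 with DESeq2, 7 with all counted genes, 8 with genes at 1 CPM in all 27 pools, 2 within the 18 pools with more Y-linked transcripts and 0 within the other 9, where few pools remained. DESeq2 also called more of all genes, such as 992 against 650 with edgeR on GATA2. The 7 calls on marker sums became 0 within those 9 pools. Leaving out each pool in turn, with limma, gave 2 to 8 calls among members and 4 to 8 on marker sums. The lowest counts were 2 without pool 32 among members, and 4 without pool 31 and 4 without pool 32 on marker sums. The causes were not tested. TMM scaling moved the median CPM of the members by -2.62% to 4.03%.

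No paired analysis was possible because the labels give the pools no group and no shared replicate number. The order per kilobase of transcript was not run because no transcript lengths were used here. Levels under about 1 CPM rested on few counts, and ELF5 was at or under 3 counts in 10 pools, so its absence there cannot be told from a level under that floor.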
